A study of Homo sapiens with 4 samples.

Results

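The genes described here encode the immunoproteasome and the enzymes that trim peptides for presentation at the cell surface. There are 10 of them, given as a list and matched by gene name, among 30148 genes measured in the bladder cancer cell line UMUC3 and 17752 measured in the bladder cancer cell line SW780. Of these, 7 are inducible by interferon (PSMB8, PSMB9, PSMB10, PSME1, PSME2, ERAP1 and ERAP2) and are called the induced genes below. The other 3 (PSMB5, PSMB6 and PSMB7) are the constitutive catalytic subunits, against which the induced ones were compared. All 10 genes stood at 1 CPM or more in all 4 libraries, a unit in which a gene's reads are scaled to a common library total.

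Total RNA was sequenced from UMUC3 and SW780 cells in 4 groups of 1 library each. UMUC3 shSCD1 and SW780 shSCD1 are cells in which SCD1, which puts the double bond into fatty acids such as stearate, was knocked down by lentivirus. UMUC3 shNT and SW780 shNT are the cells they are set against, whose genotype is given as WT. The labels do not say what vector the shNT cells carry, how many hairpins were used, or whether a library came from 1 culture or several. UMUC3 was grown in MEM and SW780 in DMEM, so the medium and the line cannot be told apart.

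A single library stood for each group, so differences within a line have no replicate check and were not tested, and "higher" and "lower" refer to the sequenced libraries. Intervals printed beside folds are 95% intervals for counting error alone. The columns of the deposited tables are headed first and second, and the second was read as shSCD1 because each table carries that name and gives second over first. If the columns of a table stood in the other order, every direction for that line would turn round. SCD, the gene of the targeted enzyme, stood at 59.6 CPM in UMUC3 shSCD1 against 264 CPM in UMUC3 shNT, and at 92.1 CPM in SW780 shSCD1 against 592 CPM in SW780 shNT.

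The proteasome is the barrel-shaped protease that degrades ubiquitin-tagged proteins, and its 20S core carries the catalytic sites on PSMB5, PSMB6 and PSMB7. In cells exposed to interferon, and in most blood cells, newly made cores take up PSMB8 in place of PSMB5, PSMB9 in place of PSMB6 and PSMB10 in place of PSMB7, which gives the immunoproteasome. PSME1 and PSME2 form PA28, a ring that caps the core and opens its gate. Peptides that leave the proteasome are carried into the endoplasmic reticulum, where the aminopeptidases ERAP1 and ERAP2 trim their amino-terminal ends to the length that MHC class I molecules hold. Interferon-induced genes are commonly switched on through 2 promoter elements, the interferon-stimulated response element (ISRE), which IRF factors bind, and the gamma-activated site (GAS).

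Several of these genes lie close together in the genome (GRCh38, GENCODE 29). PSMB8 (minus strand) and PSMB9 (plus strand) both lie in the MHC class II region on chromosome 6, and their outer bounds overlap by 568 bases. The overlap rests on the outermost bound of PSMB9, at 32844136. The RefSeq start of PSMB9 used below lies within 32854142-32854211, past the end of PSMB8 at 32844703. PSME1 and PSME2 lie 4394 bases apart on chromosome 14, on opposite strands, and ERAP1 and ERAP2 lie 67838 bases apart on chromosome 5, also on opposite strands. PSMB10 lies on chromosome 16, PSMB5 on chromosome 14, PSMB6 on chromosome 17 and PSMB7 on chromosome 9. All 10 are protein-coding.

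Promoter windows of the genes were searched for the cores of the ISRE and the GAS. The 7 induced genes were grouped as inducible by interferon, so ISRE matches among them describe that grouping and nothing measured in these libraries. RefSeq windows (GRCh38.p14), which run 250 bases before to 50 bases after a transcription start, were found for 8 of the 10 genes, some with 2 starts. PSMB6 and PSMB7 were not matched. The core of the ISRE was searched on both strands as GAAA, any 2 bases, GAAA, which reads TTTC, any 2 bases, TTTC on the other strand. It was found in 6 of the 7 induced genes, in 6 of their 10 windows, and in 0 of the 2 windows of PSMB5. Across the genome 3.57% of 35116 windows and 4.38% of 27305 genes held it. A stretch around each match is printed below on the strand of the gene, 5′ to 3′, with the matching bases in capitals, followed by a stretch around the start of PSMB9 and the first of 2 starts of PSMB5, where there was no match. For PSMB8 and ERAP2 the match belongs to the second of 2 starts, and for ERAP1 to the first.
PSMB8, chr6:32844028-32844081, minus strand: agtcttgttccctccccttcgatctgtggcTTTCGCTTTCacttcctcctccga
PSMB10, chr16:67936832-67936901, minus strand: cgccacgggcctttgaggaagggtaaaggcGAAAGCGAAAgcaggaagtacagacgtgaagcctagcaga
PSME1, chr14:24136169-24136213, plus strand: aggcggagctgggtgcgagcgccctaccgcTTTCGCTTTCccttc
PSME2, chr14:24146599-24146668, minus strand: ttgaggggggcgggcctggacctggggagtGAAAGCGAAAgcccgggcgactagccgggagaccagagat
ERAP1, chr5:96807926-96807973, minus strand: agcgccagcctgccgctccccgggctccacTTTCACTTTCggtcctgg
ERAP2, chr5:96876440-96876509, plus strand: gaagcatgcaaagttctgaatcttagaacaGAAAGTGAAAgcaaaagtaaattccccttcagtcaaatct
PSMB9, chr6:32854142-32854211, plus strand: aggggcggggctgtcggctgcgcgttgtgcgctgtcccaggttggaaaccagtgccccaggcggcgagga
PSMB5, chr14:23035201-23035270, minus strand: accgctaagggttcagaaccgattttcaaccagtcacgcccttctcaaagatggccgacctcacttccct

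In PSMB10, PSME2 and ERAP2 the match lay upstream of the start and on the strand of the gene. In PSMB8, PSME1 and ERAP1 it lay on the opposite strand, over or just past the start. Counted from a start at position 0, the match closest to it was that of PSMB8, from −4 to 5, and the most distant was that of ERAP2, from −30 to −21. The GAS core was searched as TTC, any 3 bases, GAA, which reads the same on both strands, and no match of it lay on a match of the ISRE core in these windows. It was found in 1 of the 7 induced genes, PSMB8, and in 1 of the 2 windows of PSMB5, against 7.66% of all windows and 9.38% of all genes. A match describes letters in a window. Binding was not measured in these samples.

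**Figure D1:**
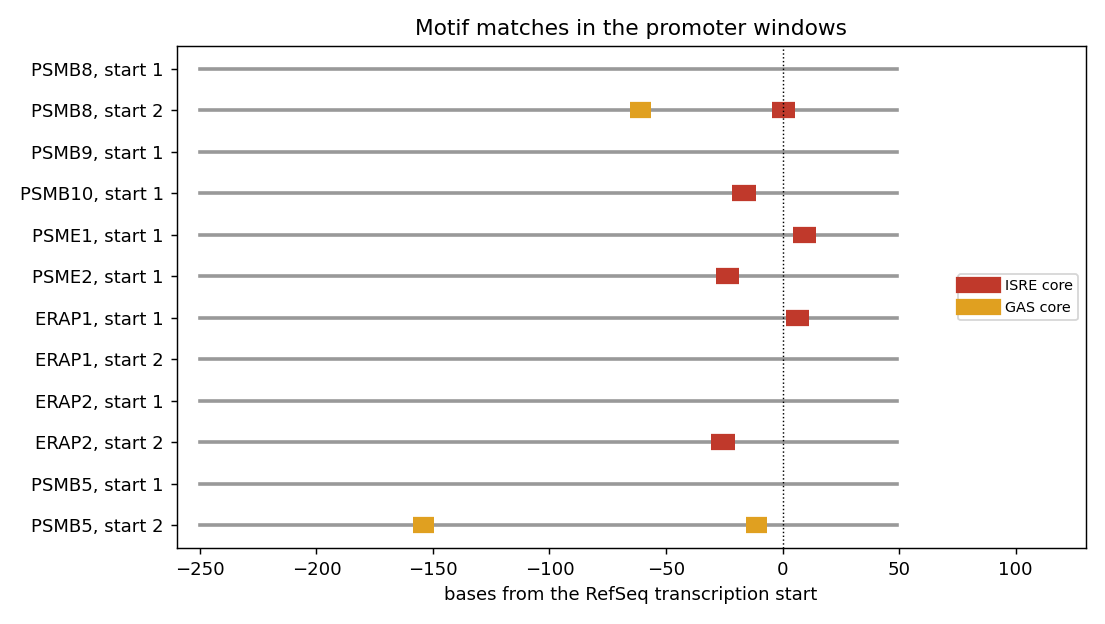
Positions of the ISRE core (red) and GAS core (yellow) matches in the promoter windows of 8 genes, in bases from the RefSeq transcription start (dotted line at 0), with 1 grey line per start. The ISRE core matches of 6 induced genes all lie between −30 and 14, and PSMB5 holds only GAS core matches.

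In UMUC3 all 7 induced genes were lower in shSCD1 than in shNT, against 45.7% of all genes. Differences are given as log2 ratios of shSCD1 over shNT on the CPM + 1 scale, which understates the difference of weakly expressed genes. The 7 induced genes had a median log2 ratio of −0.83, the 3 constitutive subunits one of −0.50, and the 14063 genes that reached 1 CPM in a library of the line one of 0.04. PSMB9 passed the size rule, which asks for a 2-fold difference on that scale, and was 1 of 10 genes to do so as lower, against 2.18% of all 14063 genes. At a limit of 1.5-fold, 7 of the 10 passed as lower, against 6.86% of all genes. These were PSMB8, PSMB9, PSMB10, PSME1, PSME2, ERAP2 and, of the constitutive subunits, PSMB5. The counting interval of the fold lay wholly below 1 for 9 of the 10, against 29.6% of all genes, and wholly above 1 for PSMB7, against 35.9%.

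The inducible catalytic subunits were, with ERAP2, the weakest of the 10 per kb of exon in UMUC3, and their log2 ratios were 3 of the 4 lowest. PSMB8, which takes the place of PSMB5, had 222 reads or 6.82 CPM in UMUC3 shSCD1 against 294 reads or 12.9 CPM in UMUC3 shNT. It was 1.89-fold lower (1.58 to 2.26). PSMB9, which takes the place of PSMB6, had 68 reads or 2.09 CPM in shSCD1 against 122 reads or 5.35 CPM in shNT. The fold was 2.56 lower (1.89 to 3.49), with a log2 ratio of −1.04, and 2.03% of all genes had a lower ratio. PSMB10, which takes the place of PSMB7, had 93 reads or 2.86 CPM in shSCD1 against 150 reads or 6.57 CPM in shNT. It was 2.30-fold lower (1.76 to 3.01), and its log2 ratio of −0.97 left it just short of the size rule. The intervals of the 3 folds overlap, so at these read numbers their order cannot be told.

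The 2 subunits of PA28 were more abundant and were lower in shSCD1 as well, PSME1 by about as much as PSMB8. PSME1 stood at 24.3 CPM in UMUC3 shSCD1 against 44.7 CPM in UMUC3 shNT, 1.84-fold lower (1.67 to 2.02). PSME2 stood at 69.8 CPM in shSCD1 against 107 CPM in shNT, 1.53-fold lower (1.44 to 1.62). Their intervals do not overlap, and reads of PSME1 per read of PSME2 in shSCD1 were 0.833 times those in shNT (0.746 to 0.930). The 5 measured pseudogenes of PSME2 held 32 reads in shSCD1 and 29 in shNT, few beside the 2272 and 2438 reads of PSME2 itself.

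Both endoplasmic reticulum aminopeptidases were lower too. ERAP1 stood at 78.6 CPM in UMUC3 shSCD1 against 111 CPM in UMUC3 shNT, 1.41-fold lower (1.33 to 1.49), which was the smallest difference among the induced genes. ERAP2 stood at 13.2 CPM in shSCD1 against 22.0 CPM in shNT, 1.67-fold lower (1.47 to 1.91). Reads of ERAP1 per read of ERAP2 were 1.19 times higher in shSCD1 than in shNT (1.03 to 1.37), so ERAP2 was lower by slightly more. ERAP1 shares 6.51% of its exonic bases with CAST and another transcript, and whether strand was used in counting is not given in the sources used here.

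Of the constitutive catalytic subunits, 2 were lower in UMUC3 shSCD1 and 1 was close to level. PSMB5, which carries the chymotrypsin-like site, stood at 91.2 CPM in UMUC3 shSCD1 against 139 CPM in UMUC3 shNT, 1.52-fold lower (1.45 to 1.60). PSMB6, which carries the caspase-like site, stood at 114 CPM in shSCD1 against 161 CPM in shNT, 1.41-fold lower (1.35 to 1.48). PSMB7, which carries the trypsin-like site, stood at 186 CPM in shSCD1 against 178 CPM in shNT, a fold of 1.05 (1.01 to 1.09). The direction of PSMB7 depended on the scaling, since its log2 ratio of 0.07 became −0.015 in the authors' deposited table. PSMB5 and PSME2 were lower by about as much, so constitutive and induced genes were not cleanly separated by the size of their difference.

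**Figure D2:**
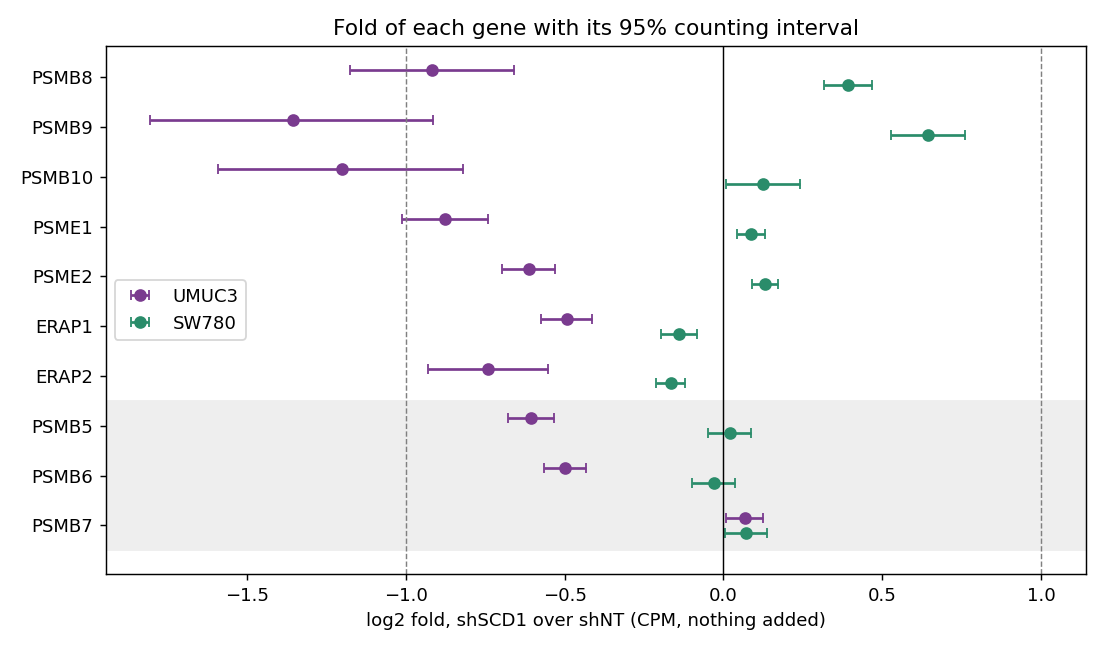
Log2 fold of each gene in shSCD1 over shNT, from CPM with nothing added, in UMUC3 (purple) and SW780 (green), with 95% intervals that cover counting error only and dashed lines at 2-fold. In UMUC3 all genes but PSMB7 lie left of 0, and in SW780 PSMB8 and PSMB9 lie farthest right.

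In SW780 the induced genes parted by role. The 3 inducible catalytic subunits and both PA28 subunits were higher in shSCD1 than in shNT, and both aminopeptidases were lower. Of all genes 48.5% were higher and 51.5% lower. The median log2 ratio was 0.39 for the inducible catalytic subunits, 0.11 for PA28, −0.15 for the aminopeptidases and 0.02 for the constitutive subunits, beside −0.01 for the 12880 genes that reached 1 CPM in a library of the line. By the 2-fold size rule 0 of the 10 genes passed in either direction, against 2.54% of all genes. At 1.5-fold PSMB9 alone passed as higher, against 5.05% of all genes. The counting interval lay wholly above 1 for 6 of the 10, against 28% of all genes, and wholly below 1 for 2 of the 10, the aminopeptidases, against 29.8%.

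PSMB9 had 1304 reads or 51.0 CPM in SW780 shSCD1 against 1114 reads or 32.7 CPM in SW780 shNT, 1.56-fold higher (1.44 to 1.69). Of all genes 95.6% had a lower log2 ratio. PSMB8 had 2871 reads or 112 CPM in shSCD1 against 2917 reads or 85.6 CPM in shNT, 1.31-fold higher (1.25 to 1.38). These 2 were the induced genes that stood furthest from level in SW780. PSMB10 stood at 42.7 CPM in shSCD1 against 39.2 CPM in shNT, 1.09-fold higher (1.01 to 1.18), and its interval lies below that of PSMB8.

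PA28 and the aminopeptidases differed little in SW780. PSME1 stood at 295 CPM in SW780 shSCD1 against 278 CPM in SW780 shNT, 1.06-fold higher (1.03 to 1.09). PSME2 stood at 334 CPM in shSCD1 against 305 CPM in shNT, 1.09-fold higher (1.06 to 1.13). Both differences are small beside those of PSMB8 and PSMB9. ERAP1 stood at 167 CPM in shSCD1 against 184 CPM in shNT, 1.10-fold lower (1.06 to 1.15). ERAP2 stood at 255 CPM in shSCD1 against 286 CPM in shNT, 1.12-fold lower (1.09 to 1.16). The intervals of ERAP1 and ERAP2 overlap, as do those of PSME1 and PSME2.

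For the constitutive subunits in SW780 the folds lay close to 1. PSMB5 stood at 120 CPM in SW780 shSCD1 against 118 CPM in SW780 shNT, a fold of 1.01 (0.967 to 1.06). PSMB6 stood at 120 CPM in shSCD1 against 122 CPM in shNT, a fold of 0.979 (0.934 to 1.03). PSMB7 stood at 128 CPM in shSCD1 against 122 CPM in shNT, a fold of 1.05 (1.00 to 1.10). For PSMB5 and PSMB6 no difference was detectable beyond counting error at this depth.

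In the authors' deposited tables GFOLD, which pulls a log2 fold change towards 0 where reads are few, was below 0 for 9 of the 10 genes in UMUC3, against 34.9% of all genes, and it was 0 for PSMB7. Its lowest value among the 10 was −0.93 for PSMB9. In SW780 the deposited GFOLD was above 0 for 4 of the 10 genes, against 25.7% of all genes, and these were PSMB8 (0.31), PSMB9 (0.51), PSME1 (0.04) and PSME2 (0.09). It was below 0 for ERAP1 and ERAP2, against 26% of all genes, and 0 for PSMB10 and the constitutive subunits in the same deposited table. The deposited values and the recovered reads gave the same direction wherever GFOLD was not 0.

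Because each inducible subunit takes the place of 1 constitutive partner, the reads of each pair were set against each other, a measure in which the library total and the gene lengths cancel. In UMUC3 the inducible member of every pair was lower relative to its partner in shSCD1. Reads of PSMB8 per read of PSMB5 in shSCD1 were 0.805 times those in shNT (0.669 to 0.969). For PSMB9 over PSMB6 the fold was 0.553 (0.403 to 0.752). For PSMB10 over PSMB7 it was 0.415 (0.316 to 0.543). The last of these rested mostly on PSMB10, since PSMB7 was close to level. Summed over the 3 pairs, there were 383 inducible reads beside 12719 constitutive ones in UMUC3 shSCD1, against 566 beside 10886 in UMUC3 shNT, a fold of 0.579 (0.506 to 0.662). Leaving out PSMB10 and PSMB7 gave 0.715, and leaving out PSMB8 and PSMB5 gave 0.469.

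In SW780 the same measure went the other way for 2 pairs. Reads of PSMB8 per read of PSMB5 were 1.30 times those in shNT (1.21 to 1.39), and for PSMB9 over PSMB6 the fold was 1.60 (1.45 to 1.75). PSMB10 over PSMB7 gave 1.04 (0.945 to 1.14), which is within counting error of no difference. The summed fold was 1.29 (1.23 to 1.35), from 5266 inducible beside 9397 constitutive reads in SW780 shSCD1 and 5366 beside 12359 in SW780 shNT. With the 20S alpha subunits, which form the outer rings of the core, in place of the constitutive catalytic ones, the summed fold was 0.549 (0.481 to 0.627) in UMUC3 and 1.28 (1.23 to 1.33) in SW780. The constitutive subunits over the same alpha subunits gave 0.949 (0.921 to 0.977) in UMUC3 and 0.991 (0.962 to 1.02) in SW780.

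Levels within a pair can be compared once they are divided by exon length. In UMUC3 PSMB8 stood at 0.0707 times the level of PSMB5 per kb of exon in shSCD1 and at 0.0878 times in shNT. PSMB9 stood at 0.0174 times the level of PSMB6 in shSCD1 and at 0.0315 times in shNT, and PSMB10 at 0.0124 times the level of PSMB7 in shSCD1 and at 0.0298 times in shNT. The inducible subunits were thus minor transcripts in both UMUC3 libraries. In SW780 PSMB8 stood at 0.888 times the level of PSMB5 in shSCD1 and at 0.686 times in shNT, PSMB9 at 0.403 times that of PSMB6 in shSCD1 and 0.253 times in shNT, and PSMB10 at 0.268 times that of PSMB7 in shSCD1 and 0.258 times in shNT. Every inducible subunit was below its partner in all 4 libraries, with PSMB8 in SW780 shSCD1 nearest to it.

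**Figure D3:**
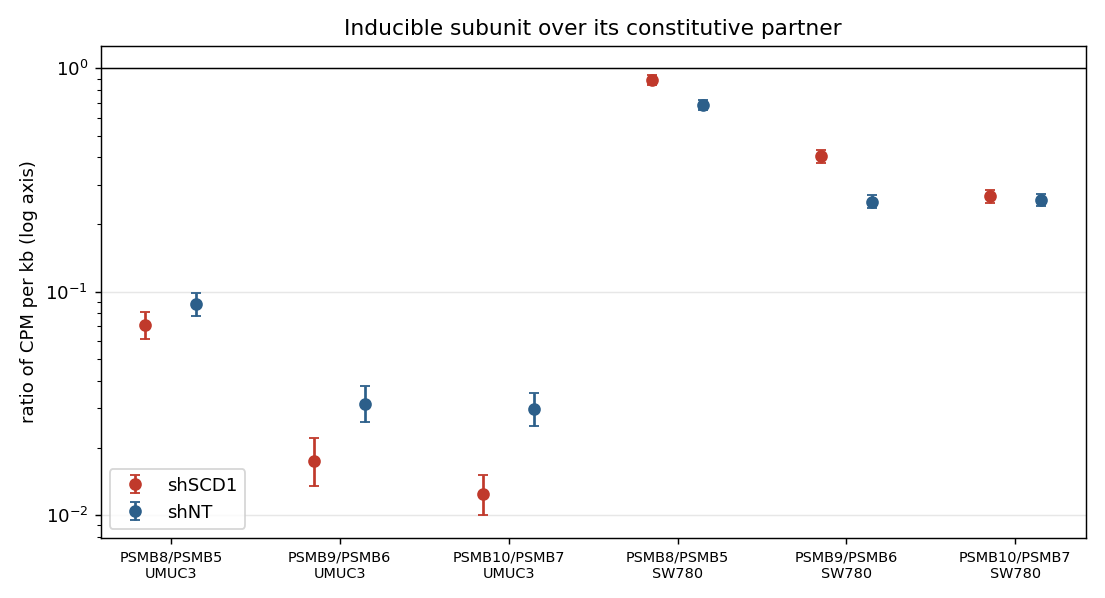
Ratio of each inducible subunit to its constitutive partner in CPM per kb of exon (log axis) in shSCD1 (red) and shNT (blue) libraries of both lines, with 95% intervals that cover counting error only. In UMUC3 each ratio is below 0.1 and lower in shSCD1, while in SW780 PSMB8 over PSMB5 reaches 0.888 in shSCD1.

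The order of the 10 genes by level per kb of exon also differed between the lines. In UMUC3 shSCD1 it ran from PSMB7 (190 CPM per kb) and PSMB6 (130) through PSMB5 (62.3), PSME2 (46.9), PSME1 (19.9), ERAP1 (10.6) and PSMB8 (4.40) to PSMB10 (2.35), PSMB9 (2.27) and ERAP2 (2.23). In UMUC3 shNT the head was PSMB6 (184 CPM per kb) and PSMB7 (181), and the tail PSMB9 (5.81), PSMB10 (5.40) and ERAP2 (3.74). In both UMUC3 libraries the 3 constitutive subunits stood above all 7 induced genes. In SW780 shSCD1 PSME1 (241 CPM per kb) and PSME2 (225) came first, ahead of PSMB6 (137), PSMB7 (131), PSMB5 (81.6), PSMB8 (72.5), PSMB9 (55.4), ERAP2 (43.3), PSMB10 (35.1) and ERAP1 (22.5). In SW780 shNT the induced genes ran PSME1 (227), PSME2 (205), PSMB8 (55.2), ERAP2 (48.6), PSMB9 (35.5), PSMB10 (32.2) and ERAP1 (24.8). Using the longest coding transcript in place of all exons exchanged only some neighbours among PSMB9, PSMB10, ERAP1 and ERAP2, so those places in the order are not settled. PSMB6 and PSMB7 in UMUC3 shNT, and PSMB10, PSMB9 and ERAP2 in UMUC3 shSCD1, also differed by less than counting error.

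**Figure D4:**
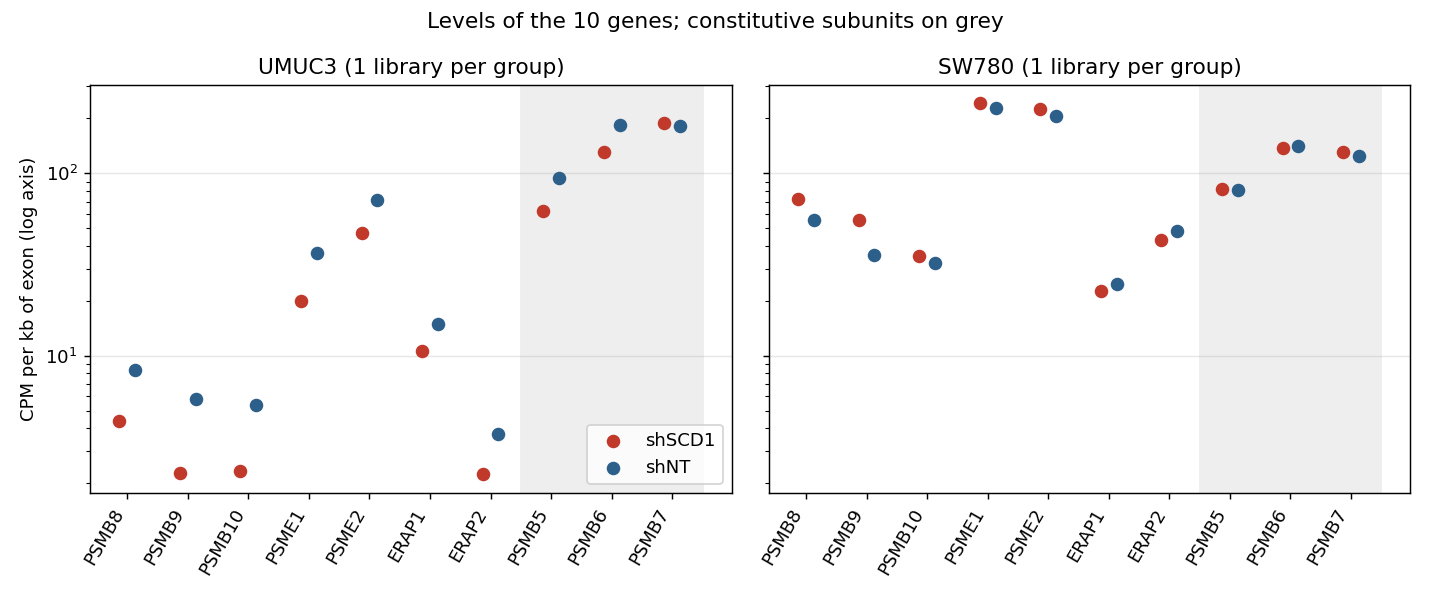
Level of each gene in CPM per kb of exon (log axis) in shSCD1 (red) and shNT (blue), 1 library per group, with the constitutive subunits on grey. In UMUC3 the inducible catalytic subunits lie between 2.27 and 8.32 CPM per kb, and in SW780 between 32.2 and 72.5.

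The difference between the lines was larger than that between shSCD1 and shNT in either line for all 7 induced genes. The 2 tables were normalized separately, so CPM was taken here over the 15415 genes found in both, and no test was made. Between the shNT libraries 6 of the 10 genes were at least 2-fold higher in SW780, against 27.3% of all genes. At least 2-fold lower were 0 of the 10, against 15.1% of all genes. ERAP2 stood at 291 CPM in SW780 shNT against 22.7 CPM in UMUC3 shNT, 12.8-fold higher (11.7 to 14.1). PSMB8 stood at 87.1 CPM in SW780 shNT against 13.3 CPM in UMUC3 shNT, 6.56-fold higher (5.82 to 7.42). PSME1 stood at 283 CPM in SW780 shNT against 46.0 CPM in UMUC3 shNT, 6.14-fold higher (5.76 to 6.56). The folds of PSMB9 (6.04), PSMB10 (5.88) and PSME1 overlap with that of PSMB8 in their intervals. PSME2 was 2.82-fold higher (2.70 to 2.95) and ERAP1 1.64-fold higher (1.57 to 1.72) in SW780, while PSMB5, PSMB6 and PSMB7 stood at 0.840, 0.752 and 0.680 times their UMUC3 level. The aminopeptidases stood in opposite order in the lines, since ERAP1 stood at 0.511 times the level of ERAP2 per kb in SW780 shNT and at 3.99 times in UMUC3 shNT.

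Between the shSCD1 libraries the gap was wider for all 7 induced genes. ERAP1 and ERAP2 were lower in shSCD1 in both lines, and by more in UMUC3. PSMB9 was 24.0-fold higher in SW780 shSCD1 than in UMUC3 shSCD1 (18.8 to 31.2), ERAP2 19.1-fold (17.3 to 21.1) and PSMB8 16.2-fold (14.1 to 18.7). PSMB10 was 14.7-fold higher (11.9 to 18.4) and PSME1 11.9-fold (11.1 to 12.9). PSMB5 was 1.29-fold higher, PSMB6 1.04-fold higher, and PSMB7 again stood at 0.680 times its UMUC3 level. At least 2-fold higher in SW780 were 7 of the 10 genes, against 26.9% of all genes.

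The rest of the proteasome was read from lists of 29 genes for the alpha and non-catalytic beta subunits of the core and for the 19S cap, which recognises ubiquitin and unfolds substrates. In UMUC3 their log2 ratios ran between −0.42 (PSMD4, a ubiquitin receptor of the cap) and 0.28, with a median of −0.18, and 23 of the 29 were below 0 against 45.7% of all genes. None passed the size rule, against 4.64% of all genes. PSMB5 (−0.60) and PSMB6 (−0.50) lay below all 29, while PSMB7 (0.07) lay inside their range. In SW780 the 29 genes had a median of 0.01 and ran between −0.20 and 0.19, and PSMB5, PSMB6 and PSMB7 all lay inside that range. PSMB8 (0.39) and PSMB9 (0.63) lay above all 29 in SW780, and all 7 induced genes lay below all 29 in UMUC3.

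Other activators, chaperones and transcription factors of the proteasome differed by less than 2-fold in both lines. Of all genes 4.64% in UMUC3 and 2.54% in SW780 passed the 2-fold size rule. In UMUC3 PSME3, a nuclear activator related to PSME1 and PSME2, had a log2 ratio of 0.21, and PSMF1, which inhibits the core, one of 0.22, the opposite sign to PA28. The 8 assembly chaperones had median log2 ratios of −0.07 (UMUC3) and 0.04 (SW780), with PSMG4 highest in UMUC3 (0.44) and PSMD5 lowest in SW780 (−0.36). Of 4 genes listed as proteasome transcription factors or their processing enzymes (NFE2L1, NFE2L2, DDI2 and NGLY1), DDI2, the protease that activates the factor NFE2L1, had a log2 ratio of 0.43 in UMUC3 and −0.30 in SW780. These 4 genes had median log2 ratios of −0.13 (UMUC3) and −0.19 (SW780).

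Among 9 genes listed as other peptidases the median was 0.10 in UMUC3, with 4 genes below 0 against 45.7% of all genes. In SW780 the median was −0.05, with 6 below 0 against 51.5% of all genes. LAP3, a cytosolic leucine aminopeptidase, had the lowest log2 ratio of the 9 in UMUC3 and the highest in SW780. It stood at 51.7 CPM in UMUC3 shSCD1 against 73.5 CPM in UMUC3 shNT (−0.50), and at 134 CPM in SW780 shSCD1 against 91.3 CPM in SW780 shNT (0.55). BLMH, a cytosolic cysteine peptidase, was also lower in UMUC3 (−0.47), whereas TPP1, a lysosomal peptidase, was higher there (0.50).

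Of 11 genes that load class I molecules, 9 were below 0 in UMUC3 (median −0.27) and 10 were above 0 in SW780 (median 0.32), against 45.7% and 48.5% of all genes. By the size rule 0 of the 11 passed in either line, against 4.64% of all genes in UMUC3 and 2.54% in SW780. In UMUC3 low values included TAPBPL, a peptide editor (−0.81), and B2M, the invariant light chain (−0.61). In SW780 the highest were HLA-B, a heavy chain, at 464 CPM in SW780 shSCD1 against 252 CPM in SW780 shNT (0.88), TAPBP, the tapasin that bridges transporter and heavy chain (0.67), and TAP1, a subunit of the peptide transporter (0.35).

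The regulators through which interferon acts did not all share the direction of the induced genes. In UMUC3 1 of 10 regulators with at least 1 CPM passed the size rule, against 4.64% of all genes. This was IFNGR1, the ligand-binding chain of the interferon gamma receptor. It stood at 34.2 CPM in UMUC3 shSCD1 against 84.4 CPM in UMUC3 shNT, 2.47-fold lower (2.29 to 2.66). IRF1, a factor that binds the ISRE, stood at 7.22 CPM in shSCD1 against 6.31 CPM in shNT (0.17), and NLRC5, the transactivator of class I genes, at 5.53 CPM in shSCD1 against 5.04 CPM in shNT (0.11), both within counting error of no difference. Thus IRF1 and NLRC5 were not lower in UMUC3 shSCD1 while all 7 induced genes were.

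In SW780 1 of 10 regulators passed the size rule, against 2.54% of all genes. This was NLRC5, at 12.0 CPM in SW780 shSCD1 against 3.73 CPM in SW780 shNT, 3.23-fold higher (2.61 to 4.00). IRF9, a factor that acts at the ISRE, stood at 70.1 CPM in shSCD1 against 49.2 CPM in shNT (0.50). IRF1 differed by less, at 161 CPM in shSCD1 against 149 CPM in shNT (0.11). The 10 regulators had median log2 ratios of 0.10 (UMUC3) and 0.09 (SW780).

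**Figure D5:**
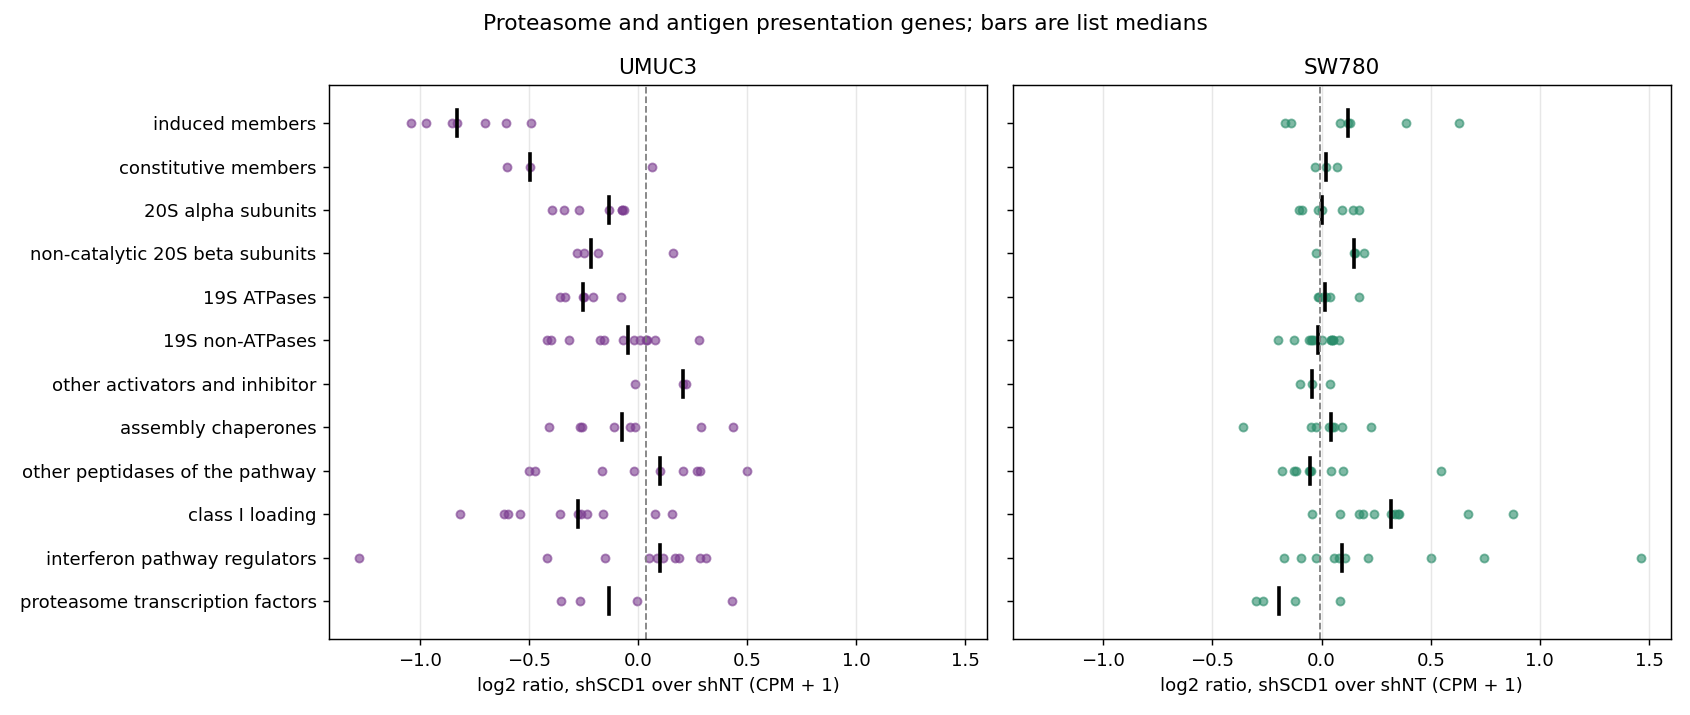
Log2 ratio of shSCD1 over shNT on the CPM + 1 scale for each gene (point) of the induced and constitutive sets and of 10 lists of proteasome, peptidase, class I and interferon genes, with the list median (bar) and the median of all genes (dashed line). In UMUC3 the induced genes lie furthest left as a set (median −0.83), and in SW780 the class I genes lie furthest right (median 0.32).

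The genes whose pattern over the 4 libraries was most like that of PSMB8, PSMB9 and PSMB10 were sought among 9129 genes with at least 5 CPM in every library. Likeness was the distance between log2(CPM + 1) values centred on each gene's mean, in which the gap between the lines weighs most. The nearest 5 were DDX60L, a helicase related to viral RNA sensors (distance 0.187), APOL6, an apolipoprotein L (0.188), PLCD3, a phospholipase C (0.195), CYB561, a membrane cytochrome (0.210), and UBE2L6, which conjugates ISG15 to proteins (0.298). APOL6 stood at 17.5 CPM in UMUC3 shSCD1 against 32.2 CPM in UMUC3 shNT, and at 218 CPM in SW780 shSCD1 against 174 CPM in SW780 shNT. UBE2L6 stood at 13.3 CPM in UMUC3 shSCD1 against 20.2 CPM in UMUC3 shNT, and at 195 CPM in SW780 shSCD1 against 135 CPM in SW780 shNT. Of the 10 genes themselves PSME1 was as near (0.229), ERAP2 (0.871), PSME2 (1.31) and ERAP1 (2.30) were farther off, and the constitutive subunits were the farthest (3.09 to 3.76).

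A test was possible only with the lines as replicates of the knockdown, 2 shSCD1 libraries against 2 shNT libraries with the line as a block. The edgeR quasi-likelihood test called 0 of 12654 genes, with 397 at an unadjusted p under 0.05, and 0 of the 10 genes were among either. All 10 had an adjusted p of 0.979 by edgeR. The lowest unadjusted p by edgeR among them was 0.0794, for ERAP2, with a log2 fold change of −0.45, and ERAP1, at −0.32, was like it lower in both lines. DESeq2 called 27 genes (0.213%), none of the 10, which had an adjusted p of 1.00 each. Without a filter on low counts edgeR called 1 of 15241 genes (0.00656%), which was not among the 10. With 1 residual degree of freedom, and with 6 of the 10 genes differing in direction between the lines, this test says little of either line. The share of all genes that differed in direction was not computed.

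Several measured features of the libraries moved with these results, and their part in them was not tested. The epithelial keratins KRT8 and KRT18 were also lower in UMUC3 shSCD1, at 78.3 and 170 CPM against 148 and 372 CPM in UMUC3 shNT, and KRT19 had 0 reads in both UMUC3 libraries, where 7 of 10 epithelial and urothelial markers were measured. All 10 of those markers were measured in SW780, 9 of them at 1 CPM or more in a library. Of these 9, 7 were below 0 (median log2 ratio −0.31), against 51.5% of all genes, and 2 were above 0. EPCAM was 1.38-fold higher in SW780 shSCD1, at 105 CPM against 76.5 CPM in SW780 shNT. There the urothelial marker UPK1A was 2.51-fold lower in shSCD1 (14.5 CPM in shSCD1 against 36.4 CPM in shNT), KRT19 was 1.47-fold lower, CDH1 stood at 496 CPM in shSCD1 and 494 CPM in shNT, and UPK3A had 2 reads in shSCD1 and 8 in shNT. The 13 protein-coding genes of the mitochondrial genome took 5.51% of reads in UMUC3 shSCD1 against 3.65% in UMUC3 shNT, and 4.52% in SW780 shSCD1 against 4.33% in SW780 shNT. Blood cells make the immunoproteasome as their main form, and of 13 blood markers 6 were measured in UMUC3, summing to 48.3 CPM in shSCD1 and 67.6 CPM in shNT, and 11 in SW780, summing to 16.1 CPM in shSCD1 and 22.1 CPM in shNT. CD68, a lysosomal protein that other cells make too, gave 47.5 CPM in UMUC3 shSCD1 and 67.0 in UMUC3 shNT, and 12.6 CPM in SW780 shSCD1 and 17.4 in SW780 shNT. The other 5 blood markers measured in UMUC3 each stood at 0.430 CPM or less. PTPRC, the defining marker of blood cells, had 0 reads in SW780 shSCD1 and 3 in SW780 shNT. These are bulk libraries, in which fewer cells that express a gene and less RNA per cell cannot be told apart. Total reads over the genes of each table were 32540576 in UMUC3 shSCD1 and 22818368 in UMUC3 shNT, and 25549737 in SW780 shSCD1 and 34087871 in SW780 shNT.

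Reads of PSMB8, PSMB9, PSMB10 and ERAP1 may in part belong to overlapping transcripts. PSMB10 shares 30.7% of its exonic bases with AC040162.1, which had 34 reads in UMUC3 shSCD1 and 21 in UMUC3 shNT, and 176 in SW780 shSCD1 and 230 in SW780 shNT. PSMB8 and PSMB9 share 8.65% and 15.1% of theirs with the antisense transcript PSMB8-AS1, which had 8 reads in UMUC3 shSCD1 and 0 in UMUC3 shNT. Beside these, PSMB9 had 68 reads in UMUC3 shSCD1 and 122 in UMUC3 shNT, and PSMB8 had 222 and 294 in the same libraries. CAST, which overlaps ERAP1, had 10117 reads in UMUC3 shSCD1 and 7915 in UMUC3 shNT, more than the 2557 and 2525 reads of ERAP1 there, and 7411 in SW780 shSCD1 and 14012 in SW780 shNT. These reads are not scaled to the library totals, which were larger in UMUC3 shSCD1 than in UMUC3 shNT and smaller in SW780 shSCD1 than in SW780 shNT. A larger number of reads thus does not by itself mean a higher level. Relative to the library totals CAST was lower in shSCD1 than in shNT in both lines, as ERAP1 was. The part of CAST reads in the ERAP1 differences was not tested. How reads of shared bases were divided is not given in the sources used here.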

How the data were processed

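Per the labels' protocols, TruSeq libraries were sequenced on an Illumina NovaSeq. Per the submitters' processing notes, the genome build was hg38. The aligner, counter, annotation and use of strand were not given in the sources used here. In each line, the signal that the authors deposited in 2 columns, headed RPKM, holds scaled read counts that were not divided by gene length. At least 99.9% of values above 0 were whole multiples of 1 read's worth to within 0.1 reads, so whole reads were recovered and expressed as CPM of the column total. The log2 values that the authors deposited, per the file headers, are GFOLD at a setting of 0.01 and a log2 fold change, both second library over first. Their scaling lies −0.08 (UMUC3) and 0.005 (SW780) from the plain ratio in the median. The design had allowed for RPKM or CPM, and CPM was used.

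Log2 ratios used CPM plus 1 and genes that reached 1 CPM in a library of the line, with a size rule of 2-fold. For folds, the exact Clopper-Pearson 95% interval of the share of reads from shSCD1 was converted, and intervals of read ratios are exact conditional intervals of the odds ratio. Reads carry no molecular identifiers and are not independent molecules, so both kinds cover counting error only. A count of 0 allows up to 3 reads. Exon lengths, positions and shared exonic bases came from GENCODE 29, and the promoter windows from RefSeq. Recovered reads were tested across both lines with edgeR 4.0.16, on genes with at least 1 CPM in at least 2 libraries, with DESeq2 1.42.0 as an alternative. The adjusted p-values are Benjamini-Hochberg values over all genes tested, the line was the block, and the spread is between lines. Python 3.11.15 and R 4.3.3 were used, and the computations were tested on simulated data.

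The members, the 10 lists with 75 genes, the markers and the rules were chosen with earlier results of these data known. Genes outside the 10 were named by rule: up to 3 per list and line with the largest log2 ratio in size among genes that reached 5 CPM in the line, IRF1 and NLRC5, SCD, markers, and the 5 nearest by likeness. A few genes chosen this way are not reported here.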

Additional observations from a re-analysis of the deposited data

Results flagged for a closer look

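In 6 of the 10 genes the UMUC3 and SW780 libraries moved in opposite directions between shSCD1 and shNT. The share of all genes with opposite directions was not computed, so 6 of 10 is not read as a trait of these genes. Of all genes 45.7% were below 0 in UMUC3 and 51.5% in SW780. With 1 library per group this difference between the lines was not tested. The UMUC3 log2 ratio minus the SW780 log2 ratio was −1.22 for PSMB8, −1.67 for PSMB9 and −1.09 for PSMB10, the inducible catalytic subunits. It was −0.94 for PSME1 and −0.74 for PSME2, the subunits of PA28. It was −0.62 for PSMB5, whose SW780 log2 ratio of 0.02 is within counting error of 0, so its opposite sign there carries little.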

How the results depend on the processing

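In UMUC3 1 of the 10 genes passed the 2-fold size rule, against 2 with a pseudocount of 0.1 CPM, 7 at 1.5-fold and 0 by a deposited GFOLD of at least 1 in size. In SW780 0 passed, against 1 at 1.5-fold. The median log2 ratio of the induced genes in UMUC3 was −0.83, and −0.96 by the authors' deposited log2 fold change. The PSMB7 log2 ratio in UMUC3 turned to −0.015 in that table, whose scaling lies lower by a median of 0.08. The fold of the summed inducible to constitutive reads was 0.579 in UMUC3, against 0.469 without PSMB8 and PSMB5 and 0.715 without PSMB10 and PSMB7. In SW780 it was 1.29, against 1.20 without PSMB9 and PSMB6 and 1.39 without PSMB10 and PSMB7. The test over both lines called 0 genes by edgeR, 27 by DESeq2 and 1 by edgeR with no filter on low counts, none of them among the 10. Under TMM scaling, the smaller pseudocount or totals over genes of both tables (chosen after seeing the data for the counts of genes), all 10 log2 ratios in each line kept their sign and moved by less than counting error. No paired analysis was possible because each group holds 1 library, other than the test with the line as a block, in which leaving out a library leaves no residual degree of freedom. In UMUC3 shSCD1 the depth of PSMB9, PSMB10 and PSMB8 (68, 93 and 222 reads) limits the order of their folds.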
